A study of Homo sapiens with 4 samples.

Results

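The 10 genes described here are H2AFJ and 9 other genes that encode replication-independent histones, namely H2AFZ, H2AFV, H2AFX, H2AFY, H2AFY2, H1F0, H1FX, H3F3A and H3F3B. They were taken by symbol from the 33538 genes of the matrices, and all 10 were found. H2AFJ was chosen by its measured UMI counts, 0 in both resistant lines, and the others as genes of the same kind, so the levels of H2AFJ are a description and no test is given on them. The cells were LNCaP, an androgen-sensitive line from a human prostate cancer metastasis, and its derivatives. Single-cell RNA sequencing (scRNA-seq) covered parental LNCaP kept in the solvent DMSO (0.1%) for 48 h, LNCaP given 10 µM enzalutamide (ENZ), an androgen receptor antagonist, for 48 h (LNCaP-ENZ48), and the ENZ-resistant lines RES-A and RES-B. The resistant lines are LNCaP cells that survived prolonged culture with ENZ itself (RES-A) or with RD-162, a related antagonist (RES-B). Both were then kept in 10 µM ENZ. With 1 library in each group there is no replicate against which a difference could be judged, and line, treatment and library cannot be told apart.

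Nucleosomes wrap DNA around histones H2A, H2B, H3 and H4, with a linker histone H1 where DNA enters and leaves. Most histones are made in S phase from clustered genes whose transcripts end in a stem-loop in place of a poly(A) tail. Replication-independent histones are instead made throughout the cell cycle from transcripts with a poly(A) tail and can replace the S-phase proteins in chromatin. H2AFJ encodes H2A.J, a variant close to canonical H2A that is known to accumulate in senescent cells and in luminal epithelium.

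The promoters of H2AFJ, of its neighbour HIST4H4 and of H2AFX are shown because the first pair of genes had few or no UMIs in the resistant lines, whereas H2AFX varied most with the phase of the cell cycle. Each line gives the 250 bases before the transcription start listed by RefSeq (GRCh38.p14), read 5′ to 3′ on the strand of the gene. Capitals mark CCAAT, also read as ATTGG on the opposite strand, and TATAAA on the strand of the gene. The H2AFJ sequence is chr12:14774155-14774404 on the plus strand, that of H2AFX is chr11:119095466-119095715 on the minus strand and that of HIST4H4 is chr12:14771132-14771381 on the minus strand.
H2AFJ: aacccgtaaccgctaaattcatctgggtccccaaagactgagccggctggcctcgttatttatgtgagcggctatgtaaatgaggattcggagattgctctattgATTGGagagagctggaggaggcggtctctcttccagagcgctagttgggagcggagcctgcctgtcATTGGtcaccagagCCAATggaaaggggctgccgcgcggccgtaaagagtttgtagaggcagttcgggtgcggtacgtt
H2AFX: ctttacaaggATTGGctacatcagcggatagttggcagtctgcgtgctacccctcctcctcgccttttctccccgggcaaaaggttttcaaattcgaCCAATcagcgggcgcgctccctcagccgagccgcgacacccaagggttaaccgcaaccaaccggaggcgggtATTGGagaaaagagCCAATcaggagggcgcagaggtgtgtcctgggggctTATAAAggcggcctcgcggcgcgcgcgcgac
HIST4H4: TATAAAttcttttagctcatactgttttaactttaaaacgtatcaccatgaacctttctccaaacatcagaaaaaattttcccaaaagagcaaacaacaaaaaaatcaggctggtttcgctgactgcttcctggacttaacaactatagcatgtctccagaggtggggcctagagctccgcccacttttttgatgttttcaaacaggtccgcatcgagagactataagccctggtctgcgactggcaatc
The H2AFJ sequence held 3 CCAAT motifs, at 65, 79 and 145 bases before the start. That of H2AFX held 4, at 67, 81, 153 and 240 bases, and a TATAAA motif 31 bases before the start. HIST4H4 had no CCAAT motif, and a TATAAA motif 250 bases before the start. Among 14383 promoter windows of 300 bases (250 before and 50 after the start), 36.8% held a CCAAT motif on either strand. A TATAAA motif on either strand was held by 10.9%. The table matched 7 of the 10 members, without H2AFY, H1F0 and H3F3A. In the windows of the matched members, H2AFZ had 3 CCAAT motifs, H2AFV and H3F3B had 4 each, and H2AFY2 and H1FX had none. The H2AFJ window held 22 CpG dinucleotides, against a median of 20 over all windows, and HIST4H4 held 8. These matches describe the letters only.

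After filtering, 14727 cells remained, between 1782 and 4569 per library, and the sums per library lay between 50208831 and 60838227 unique molecular identifiers (UMIs), each standing for 1 captured RNA molecule. LNCaP cells were the deepest, at a median of 27079.5 UMIs against 12138 to 13676 in the other libraries. Levels are given as UMIs per 1000000 UMIs of the library (CPM), with exact 95% intervals in brackets that cover counting error only, as do all intervals here. The 3′ counts were not corrected for gene length, so levels are compared between libraries and not between genes. All 7 luminal prostate markers had UMIs in every library, summing to 1567 to 2428 CPM, although KLK2 and KLK3 had only 5 and 2 UMIs in RES-A. The 5 markers of leukocytes, fibroblasts, endothelium and basal cells summed to at most 3.51 CPM, with PTPRC and KRT5 at 0 in all libraries. Between 2 and 9 kept barcodes were shared by any pair of libraries.

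H2AFJ was abundant in both sensitive libraries and had no UMI in either resistant line. The gene (ENSG00000246705, now H2AJ) lies on the plus strand of chr12:14774405-14778002 (GRCh38). It was at 339 CPM [333, 344] in LNCaP, from 16996 UMIs, and at 362 CPM [357, 367] in LNCaP-ENZ48, from 22027 UMIs. It had 0 UMIs in both RES-A and RES-B. LNCaP and LNCaP-ENZ48 differed little, at a log2 ratio of 0.10 [0.07, 0.13] (LNCaP-ENZ48 against LNCaP). Against a floor of 3 UMIs per library, H2AFJ was lower than in LNCaP by at least 6469.8-fold for RES-A and by at least 5932-fold for RES-B. Against LNCaP-ENZ48 the bounds were at least 6920-fold and at least 6345-fold. The cell filter made no difference, since none of the 60014045 UMIs in all 5156 barcodes of RES-A, nor of the 60178718 UMIs in all 4907 barcodes of RES-B, was of H2AFJ. In the barcodes that the filter left out, H2AFJ was at 342 CPM for LNCaP and 329 CPM for LNCaP-ENZ48.

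**Figure D1:**
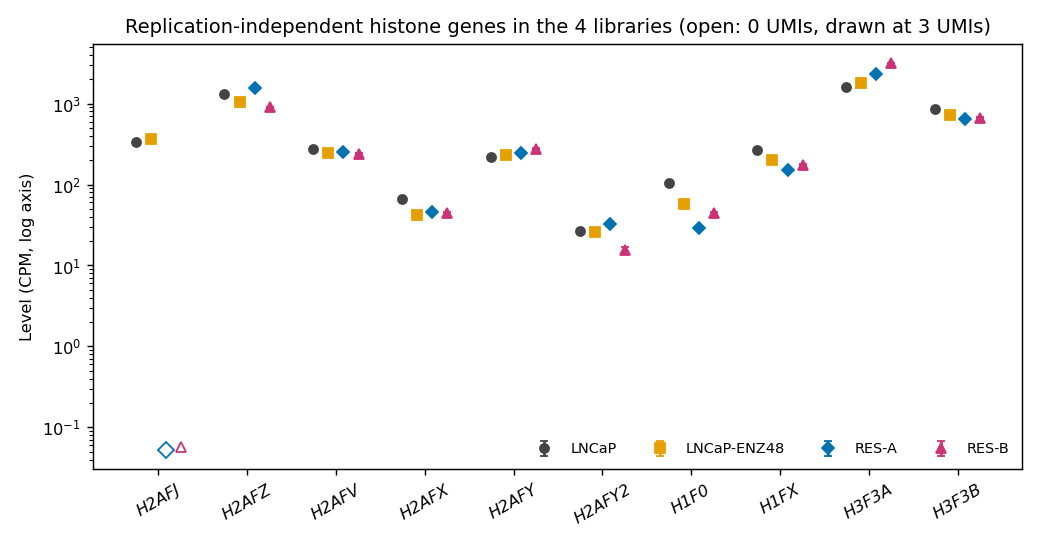
Level of each of the 10 genes (CPM, log axis) in the 4 libraries, with exact Poisson 95% intervals that are mostly smaller than the symbols; open symbols mark 0 UMIs and are drawn at the level of 3 UMIs. H2AFJ is at 339 and 362 CPM in LNCaP and LNCaP-ENZ48 and at 0 UMIs in both resistant lines, while the other 9 genes have UMIs in all 4 libraries.

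Per cell, H2AFJ was detected in nearly every sensitive cell and in no resistant cell. A UMI was found in 97.6% of LNCaP cells [96.8, 98.3] and 93.4% of LNCaP-ENZ48 cells [92.6, 94.1]. With every cell thinned to 5000 UMIs, which evens out depth, the shares were 73.1% [70.9, 75.1] and 75.1% [73.8, 76.4]. In the resistant lines 0 of 4569 RES-A cells and 0 of 4061 RES-B cells had a UMI, which allows a share of up to 0.0657% and 0.0739% of cells with one (3 cells of the total; the exact binomial upper bounds are 0.0807% and 0.0908%). The level also varied among sensitive cells. LNCaP cells held a median of 8 H2AFJ UMIs, with a 10th percentile of 2, a 90th of 19 and a maximum of 46. LNCaP-ENZ48 cells held a median of 4, with a 10th percentile of 1, a 90th of 10 and a maximum of 27. This spread exceeded counting error, with 4.33 times the variance that counting alone would give in LNCaP and 2.62 times in LNCaP-ENZ48. It was not particular to H2AFJ. The other members ran from 1.11 times (H2AFY2) to 17.8 times (H2AFZ) in LNCaP. In LNCaP-ENZ48 they ran from 1.02 times (H2AFY2) to 10.7 times (H2AFZ). A total of 42 LNCaP cells had no H2AFJ UMI, where counting alone at their depths would give 0.724, and 286 LNCaP-ENZ48 cells had none, where it would give 57.8. In LNCaP, H2AFX was likewise at 0 in 906 cells against 303 from counting alone, and H1FX in 50 against 3.35. H2AFY was near counting alone, with 12 cells against 9.04.

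**Figure D2:**
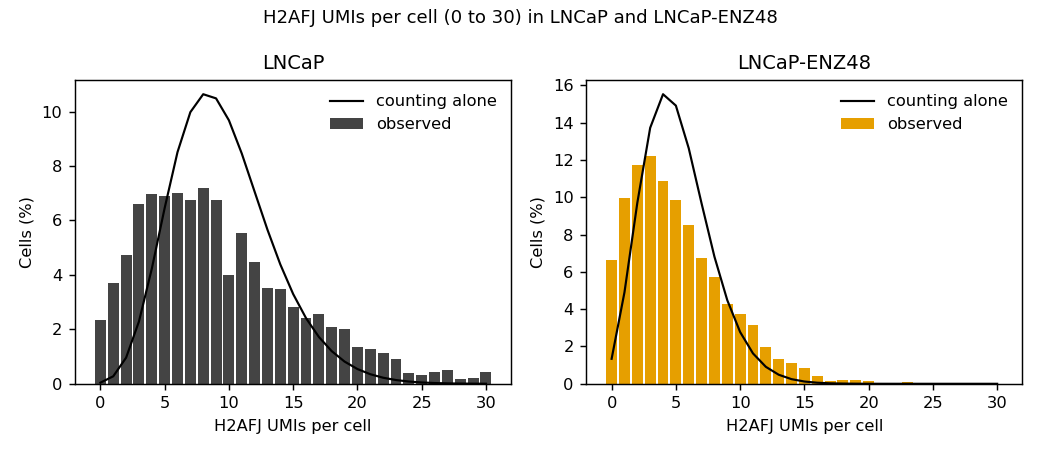
Share of cells (%) by number of H2AFJ UMIs, from 0 to 30, in LNCaP (left) and LNCaP-ENZ48 (right); bars are observed cells and the line is the share that counting alone would give at the depth of each cell. The bars are wider than the line on both sides, with 42 LNCaP and 286 LNCaP-ENZ48 cells at 0 UMIs.

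To see whether the other histones were higher in sensitive cells that lacked H2AFJ UMIs, cells without one were set against cells with one in the same library. None of the 9 was higher by the fold used throughout, a log2 ratio of 0.5 (1.41-fold), in either library. In LNCaP, 2 of the 9 were lower past this fold, H2AFV (191 against 276 CPM, -0.53 [-0.74, -0.33]) and H2AFX (35.2 against 67.1 CPM, -0.93 [-1.43, -0.47]). Of all 7915 genes tested there, 7.62% were lower and 7.15% higher past the fold. The cells without H2AFJ UMIs were more often called S phase (23.8% against 12.8%) and less often G2/M (9.52% against 16.9%). In LNCaP-ENZ48 the 286 cells without H2AFJ UMIs were instead less often called S phase (8.39% against 10.1%), and also less often G2/M (5.59% against 10.3%). In LNCaP cells called G1, the H2AFX ratio was 0.19 [-0.73, 0.97], opposite in sign. It rested on only 13 H2AFX UMIs in the 28 cells without H2AFJ UMIs. None of the 9 passed the fold there. In LNCaP cells at or above the median UMI count, H2AFV (-0.57), H2AFX (-1.24 [-1.95, -0.60]) and H1F0 (-0.87 [-1.46, -0.35]) were lower past the fold. In LNCaP cells with mitochondrial UMIs below 10%, H2AFV (-0.58), H2AFX (-1.02) and H2AFY2 (-0.51 [-1.42, 0.27]) were. None of the 9 was higher past the fold in either setting, for which no share of all genes was computed. In LNCaP-ENZ48, 0 of 9 passed it, beside 1.24% of genes higher and 2.4% lower, and the ratios ran from -0.10 (H2AFX) to 0.31 (H2AFY2, [0.02, 0.59]).

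Most of the other histones were not higher in the resistant lines either. Of the 9, only H3F3A was higher past the fold in RES-A and in RES-B, whereas H2AFX, H1F0 and H1FX were lower in both. The H2AFX ratios came to lie under the fold with cells thinned to 5000 UMIs (-0.41 in RES-A, -0.43 in RES-B) and without the 5% of cells with the most UMIs (-0.49, -0.46). Of genes tested against LNCaP in RES-A, 16.1% were higher and 15.9% lower past the fold, beside 1 and 3 of the 9 members. In RES-B, 20.1% were higher and 11.4% lower, beside 1 and 5 of the 9, with H2AFZ and H2AFY2 as the additional genes. In LNCaP-ENZ48, 1.38% were higher and 5.55% lower, beside 0 and 2 of the 9, namely H2AFX and H1F0. The median log2 ratio of the 9 genes was -0.22 after 48 h of ENZ, -0.11 in RES-A and -0.55 in RES-B, where the medians of all genes tested were -0.08, 0.02 and 0.12. These 3 comparisons share the LNCaP library. Scaling by TMM or DESeq2 size factors moved the median of all genes by about 0.10 in LNCaP-ENZ48, -0.06 or -0.04 in RES-A and -0.11 or -0.10 in RES-B, and under either one H3F3A in RES-A came to lie under the fold (0.48 and 0.49). Restricted to cells called G1, the counts were 0 higher and 1 lower of 9 in LNCaP-ENZ48 (1.6% and 3.84% of genes), 0 and 2 in RES-A (17.3% and 14.9%), and 1 and 3 in RES-B (22.1% and 11.1%).

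**Figure D3:**
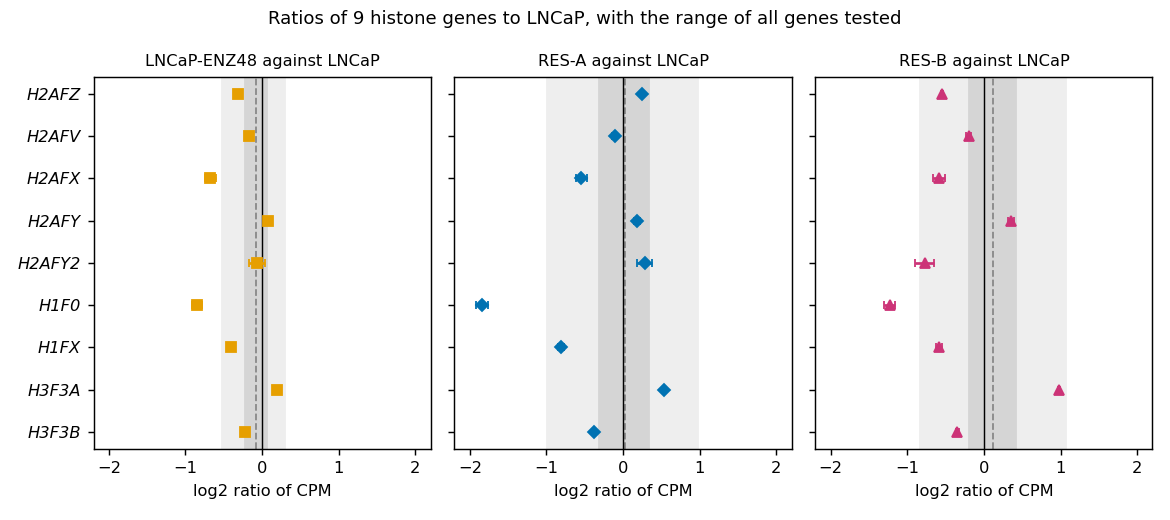
Log2 ratio of CPM to LNCaP for the 9 genes other than H2AFJ in LNCaP-ENZ48, RES-A and RES-B, with exact binomial 95% intervals; the grey bands hold the middle 50% and 90% of all genes tested and the dashed line is their median. H1F0 lies below the wider band in all 3 panels, and H3F3A lies inside it at 0.98 in RES-B.

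Because the summed output of the genes could hide exchange between them, sums were also compared. The 9 genes other than H2AFJ together made up 4710 CPM in LNCaP, 4402 after 48 h of ENZ, 5286 in RES-A and 5497 in RES-B. Without H3F3A, the remaining 8 summed to 3121 CPM in LNCaP, 2584 after 48 h of ENZ, 2986 in RES-A and 2367 in RES-B. Without this gene neither resistant line was above LNCaP, while RES-A stayed above LNCaP-ENZ48 and RES-B lay below it. Over the 22 other H2A genes, taken from the members and the clustered histone genes, the sum was 2106 CPM in LNCaP, 1789 after 48 h of ENZ, 2288 in RES-A and 1604 in RES-B. With H2AFJ counted in, the LNCaP sum was 2444 CPM and that of LNCaP-ENZ48 2151 CPM. RES-A, without H2AFJ, lay between the sensitive libraries, and RES-B lay below both.

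H2AFZ and H2AFV encode the H2A.Z proteins, which mark promoters and enhancers and are placed there by the SRCAP and EP400 complexes. H2AFZ (ENSG00000164032, chr4:99948086-99950355) was at 1322 CPM in LNCaP, 1061 after 48 h of ENZ, 1576 in RES-A and 905 in RES-B. Both resistant lines departed from LNCaP, in opposite directions, RES-A at a log2 ratio of 0.25 [0.24, 0.27] and RES-B at -0.55 [-0.56, -0.53], and differed by -0.80 [-0.82, -0.78] (RES-B against RES-A). Restricted to cells called G1, the ratios were 0.24 and -0.64. H2AFV (ENSG00000105968, chr7:44826791-44848087) varied less, at 274 CPM in LNCaP, 243 after 48 h of ENZ, 254 in RES-A and 239 in RES-B. H2AFZ accordingly supplied between 79.1% (RES-B) and 86.1% (RES-A) of the UMIs of the pair. Counts of H2AFZ, H3F3A and H3F3B are uncertain, since these genes have processed copies elsewhere in the genome that can share reads with them, and the part of such reads in the levels or ratios was not tested.

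H2AFX encodes H2A.X, which is phosphorylated around DNA double-strand breaks and whose transcript can also end in the stem-loop of S-phase histones. It (ENSG00000188486, chr11:119093874-119095465) was at 66.4 CPM in LNCaP and lower in the other 3 libraries, at 41.6 after 48 h of ENZ, 45.6 in RES-A and 44.2 in RES-B. Its log2 ratios to LNCaP were -0.68 [-0.75, -0.60], -0.54 [-0.62, -0.47] and -0.59 [-0.66, -0.51]. In cells called G1, the difference from LNCaP was not detectable in LNCaP-ENZ48 (-0.13 [-0.29, 0.03]) or in RES-B (-0.13 [-0.30, 0.04]) and was small in RES-A (-0.18 [-0.36, -0.01]). The share of cells called G1 was 70.3% in LNCaP, 80.1% after 48 h of ENZ, 65.4% in RES-A and 72.1% in RES-B. A UMI was found in 49.2% of LNCaP cells and in 26.6% to 30.6% of cells of the other libraries, and at 5000 UMIs per cell in 18.0% and in 13.6% to 15.5%.

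H2AFY and H2AFY2 encode macroH2A1 and macroH2A2, large variants linked to silent chromatin. H2AFY (ENSG00000113648, chr5:135334381-135399914) was at 217 CPM in LNCaP, 229 after 48 h of ENZ, 246 in RES-A and 277 in RES-B, and none of these differences reached the fold. H2AFY2 (ENSG00000099284, chr10:70052544-70112282) was at 26.9 CPM in LNCaP, 25.7 after 48 h of ENZ, 32.7 in RES-A and 15.7 in RES-B. Its difference after 48 h of ENZ was within counting error (-0.06 [-0.17, 0.04]). The resistant lines again lay on opposite sides of LNCaP, at 0.28 [0.18, 0.38] in RES-A and -0.77 [-0.90, -0.65] in RES-B. Of these ratios only that of RES-B passed the fold, and 71.1% of all genes tested lay below that of RES-A. Within G1 cells these ratios were 0.40 [0.27, 0.53] and -0.64 [-0.79, -0.48]. At 5000 UMIs per cell, the share of cells with an H2AFY2 UMI was 13.5% in LNCaP, 12.7% after 48 h of ENZ, 15.3% in RES-A and 7.88% in RES-B, and unthinned 50.6%, 30.2%, 32.8% and 18.0%.

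Of the linker histone genes among the members, H1F0 was lower past the fold in all 3 libraries exposed to ENZ and H1FX in the resistant lines. H1F0 encodes H1.0, a linker histone that accumulates in differentiated and non-dividing cells (ENSG00000189060, chr22:37805229-37807432). It was at 104 CPM in LNCaP, 57.5 after 48 h of ENZ, 28.9 in RES-A and 44.3 in RES-B. Its log2 ratios to LNCaP were -0.85 [-0.91, -0.79], -1.84 [-1.93, -1.76] and -1.23 [-1.30, -1.16], the lowest of the 9 genes in each comparison. Within G1 cells they were -0.54, -1.69 and -0.98, still past the fold. The resistant lines were also below LNCaP-ENZ48, at -0.99 [-1.08, -0.91] in RES-A and -0.38 [-0.45, -0.30] in RES-B. With cells thinned to 5000 UMIs, an H1F0 UMI was found in 34.1% of cells in LNCaP, 24.4% after 48 h of ENZ, 13.0% in RES-A and 18.4% in RES-B, and unthinned 79.4%, 48.1%, 27.3% and 38.6%. H1FX, which encodes the H1.10 linker histone (ENSG00000184897, chr3:129314771-129316286), was at 264 CPM in LNCaP, 198 after 48 h of ENZ, 150 in RES-A and 176 in RES-B. Its ratios were -0.41 [-0.45, -0.37], -0.81 [-0.85, -0.77] and -0.58 [-0.62, -0.55]. Among G1 cells they were -0.19, -0.78 and -0.48, which leaves RES-A alone past the fold. Together the linker genes made up 367 CPM in LNCaP, 256 after 48 h of ENZ, 179 in RES-A and 220 in RES-B.

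H3F3A and H3F3B encode the same protein, H3.3, which the HIRA complex places in active genes and the DAXX and ATRX proteins place in repeats and at telomeres. The 2 genes lay on opposite sides of LNCaP in all 3 other libraries. H3F3A (ENSG00000163041, chr1:226061851-226072019) was at 1589 CPM in LNCaP, 1818 after 48 h of ENZ, 2300 in RES-A and 3129 in RES-B. Its log2 ratios to LNCaP were 0.19 [0.18, 0.21], 0.53 [0.52, 0.55] and 0.98 [0.97, 0.99], and in cells called G1 they were 0.16, 0.48 and 0.94. H3F3B (ENSG00000132475, chr17:75776434-75785893) was at 848 CPM in LNCaP, 728 after 48 h of ENZ, 653 in RES-A and 667 in RES-B, with ratios of -0.22, -0.38 and -0.35 that stayed under the fold. The H3.3 pair summed to 2436, 2546, 2953 and 3796 CPM in the same order of libraries. H3F3A thus supplied 65.2% of the UMIs of the pair in LNCaP, 71.4% after 48 h of ENZ, 77.9% in RES-A and 82.4% in RES-B. With 1 library in each group, the variation of these shares between libraries of a group is not known.

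Set against each other, the resistant lines differed past the fold in 3 of the 9 genes. H1F0 was the higher in RES-B (0.62 [0.53, 0.71]), and H2AFZ (-0.80) and H2AFY2 (-1.05 [-1.17, -0.93]) were lower, where 16.9% of genes were higher and 8.76% lower. Against LNCaP-ENZ48, which had been in the same drug, H2AFZ was higher in RES-A (0.57 [0.56, 0.59]; 20.1% of genes) and H1F0 lower (11.8% of genes), while in RES-B H3F3A was higher (0.78 [0.77, 0.79]; 26% of genes) and H2AFY2 lower (-0.71 [-0.83, -0.59]; 8.53% of genes). TMM scaling moved the medians of all genes by -0.16 and -0.22 in the comparisons with LNCaP-ENZ48. With it, H2AFZ no longer passed the fold in RES-A.

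Although these genes are called replication-independent, several varied with the phase called for a cell. Phases were called at 5000 UMIs per cell from marker lists that hold none of the 10 genes. In G2/M against G1 cells of LNCaP, 5 of the 10 genes were higher past the fold, beside 21.7% of all genes, and in LNCaP-ENZ48 it was 5 of 10 (19.6%). The count was 6 of 9 for RES-A (13.3%) and 5 of 9 for RES-B (14.5%). In S against G1 cells, 3 of 10 were higher for LNCaP (9.15%), 2 of 10 for LNCaP-ENZ48 (8.06%), 3 of 9 for RES-A (8.53%) and 2 of 9 for RES-B (8.12%). The 5 genes higher in G2/M cells of every library were H2AFX, H2AFZ, H2AFV, H1FX and H1F0, and RES-A had H3F3B in addition, at 0.51. H2AFX varied most, from 16.6 CPM in G1 to 88.7 CPM in S and 235 CPM in G2/M in LNCaP. In G2/M cells it reached 196 after 48 h of ENZ, 135 in RES-A and 140 in RES-B, while its G1 levels were all between 14.7 and 16.6 CPM. The lower H2AFX of the resistant lines was thus seen in cells called S and G2/M. H2AFZ was at 929 CPM in G1 and 2499 CPM in G2/M cells of LNCaP (1.43 [1.40, 1.45]), and RES-B was lowest of the 4 libraries in each phase. H1F0 had its highest G2/M level in LNCaP (186 CPM against 79.5 CPM in G1), where the other libraries reached 48.5 to 81.1 CPM.

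H2AFJ and H3F3A showed other patterns. H2AFJ was lowest in S phase, at 248 CPM in S against 350 CPM in G1 and 366 CPM in G2/M cells of LNCaP, and at 299 CPM against 368 and 385 CPM in LNCaP-ENZ48. The S against G1 ratios were -0.50 [-0.57, -0.42] and -0.30 [-0.36, -0.23], neither past the fold. H3F3A differed little between phases, with levels of 1510 to 1623 CPM in LNCaP and 3092 to 3195 CPM in RES-B. For comparison, the S-phase histone gene HIST1H4C was at 425 CPM in G1, 1543 CPM in S and 2229 CPM in G2/M cells of LNCaP. A poly(A)-primed library captures clustered histone transcripts poorly, so such levels concern the captured part only.

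**Figure D4:**
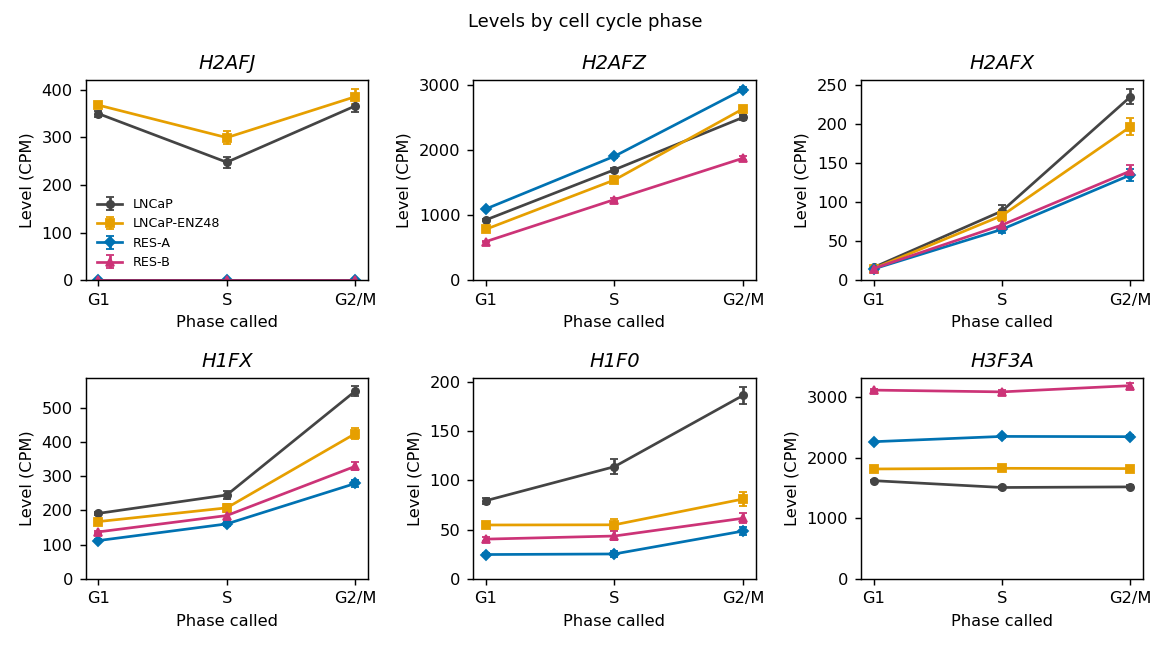
Levels (CPM) of 6 of the genes in cells called G1, S and G2/M, with 1 line per library and exact Poisson 95% intervals. H2AFX goes from 16.6 to 235 CPM between G1 and G2/M in LNCaP and reaches 135 to 140 CPM in the resistant lines; H3F3A keeps the order of the libraries in every phase, and H2AFJ is at 0 in both resistant lines.

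To determine whether the loss of transcripts extended along chromosome 12, the 10 nearest genes on each side of H2AFJ with at least 10 CPM in some library were compared. In RES-A their median log2 ratio to LNCaP was 0.20, with 8 of 20 higher and 2 lower past the fold, beside 16.1% and 15.9% of all genes and a median of 0.02. In RES-B it was 0.31, with 7 higher and 1 lower, beside 20.1% and 11.4% and a median of 0.12. WBP11, a splicing factor gene and the nearest of them at 29.1 kb, was at 43.7 CPM in LNCaP, 38.6 after 48 h of ENZ, 50.7 in RES-A and 52.7 in RES-B. On the other side the nearest was ATF7IP, at -0.40 in RES-A and 0.24 in RES-B. Lowest of all was PLEKHA5 (-1.09 in RES-A, -0.67 in RES-B) and highest was EPS8 (2.07 and 0.99), an actin-capping protein gene 1108 kb away. In RES-A CDKN1B, which encodes the cell cycle inhibitor p27, was lower as well (-0.73 [-0.84, -0.63]). DERA (1.01 and 0.80), RECQL (0.73 and 0.61), PYROXD1 (0.68 and 0.81), LRP6 (0.63 and 0.70), STRAP (0.59 and 0.54) and PRH1 (0.53 and 0.80) were higher past the fold in both lines, and MGST1 in RES-A alone (0.51).

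A gene between H2AFJ and its expressed neighbours behaved otherwise. HIST4H4 (ENSG00000197837, chr12:14767999-14771131), an H4 gene on the opposite strand, starts 3.274 kb from the start of H2AFJ. It had 71 UMIs in LNCaP and 77 in LNCaP-ENZ48, against 2 in RES-A and 10 in RES-B. Its log2 ratios to LNCaP were -5.34 [-8.41, -3.44] in RES-A and -2.89 [-4.02, -1.93] in RES-B. Larger counts of some HIST1 genes, which lie on another chromosome, were also low in the resistant lines. HIST1H2BG had 207 UMIs in LNCaP, 322 after 48 h of ENZ, 2 in RES-A and 5 in RES-B, while HIST1H2AE had 378, 503, 19 and 15 in the same order. Other HIST1 genes of similar count did not fall so far, such as HIST1H2BC (289, 335, 239 and 328) and HIST1H2BD (339, 425, 241 and 314). The HIST4H4 counts are small, and at 1.41 CPM in LNCaP the gene did not reach the minimum for the counts of genes past the fold. On the other side, C12orf60 had 110 UMIs in LNCaP, 102 after 48 h of ENZ, 127 in RES-A and 55 in RES-B. No measure of DNA copies or chromatin was used, so absence of the gene and absence of its transcription cannot be told apart.

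**Figure D5:**
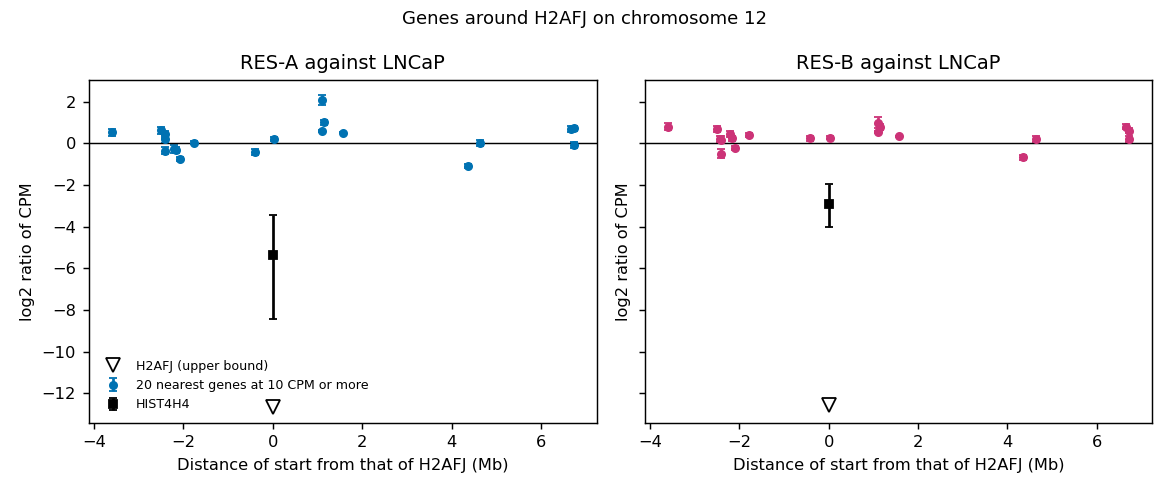
Log2 ratio to LNCaP of the 20 genes nearest to H2AFJ with at least 10 CPM in some library, by distance of their start from that of H2AFJ (Mb), in RES-A (left) and RES-B (right), with exact binomial 95% intervals; the square is HIST4H4 and the open triangle the upper bound for H2AFJ. The 20 genes lie between -1.09 and 2.07, HIST4H4 at -5.34 and -2.89, and H2AFJ, by the floor of 3 UMIs, at or below -12.66 and -12.53.

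The same look at the surroundings of the other members, added after their values were seen, gave a mixed picture. Around H3F3A the 20 nearest genes had a median log2 ratio of 0.61 in RES-B, with 14 of 20 higher past the fold (20.1% of all genes), and of 0.08 in RES-A with 2 of 20 (16.1%). Around H1F0 the median was -0.40 in RES-B, with 9 of 20 lower (11.4% of all genes), and 0.10 in RES-A, where H1F0 itself was lowest. Around H2AFX it was -0.44 in RES-A, with 8 of 20 lower (15.9% of all genes) and 1 higher. In RES-B it was -0.22 around H2AFX, with 7 of 20 lower (11.4%) and 3 higher. The medians were 0.05 and -0.22 around H2AFZ, 0.01 and 0.21 around H2AFY2, and -0.08 and 0.15 around H2AFY. Around H2AFV it was 0.31 and 0.28, with 8 and 3 of 20 higher. For H1FX (0.07 and 0.09) and H3F3B (0.07 and 0.12) the surroundings were near the median of all genes. The part of these surroundings in the ratios of the members was not tested.

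Among the genes most like H2AFJ over the 4 libraries were ETV1, SLC22A3, PTGFR and GULP1, by the distance between their centred log2 levels, taken over all 8328 genes with at least 10 CPM in some library. Their distances ran from 2.68 (ETV1) to 3.40 (GULP1). ETV1, an ETS transcription factor gene, was at 84.8 CPM in LNCaP against 41.8 CPM in LNCaP-ENZ48, and SLC22A3, which encodes an organic cation transporter, at 49.5 and 52.3 CPM. Both had 0 UMIs in the resistant lines. Of 6966 genes with at least 10 CPM in both sensitive libraries, these 2 and H2AFJ were the 3 with 0 UMIs in both resistant lines. PTGFR, a prostaglandin receptor gene, had 0 and 1 UMIs there, and GULP1 had 2 and 23. All 4 lie on chromosomes other than that of H2AFJ.

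The clustered histone genes were read beside the members, since they encode the proteins that the variants replace. Only 10 or 11 of 71 had enough UMIs to enter a comparison with LNCaP, and none of them was higher past the fold. Of these, 3 of 11 were lower for LNCaP-ENZ48, 7 of 10 for RES-A and 6 of 11 for RES-B, with list medians of -0.16, -0.93 and -0.52. Of all genes tested, 5.55%, 15.9% and 11.4% were lower, and their medians were -0.08, 0.02 and 0.12. HIST1H1C, which encodes linker histone H1.2, was at 261 CPM in LNCaP, 238 after 48 h of ENZ, 85.5 in RES-A and 113 in RES-B (-1.61 [-1.66, -1.56] in RES-A, -1.21 [-1.25, -1.16] in RES-B). HIST2H2BE was lower in both resistant lines too (-1.51 and -0.91), as were HIST1H3H (-0.99 and -1.01) and HIST3H2A (-0.54 and -1.45). HIST1H2AC was among the lowest in RES-A (-1.14) but at 0.33 [0.23, 0.43] in RES-B. HIST1H1B, another linker histone gene, was at 33.7 CPM in LNCaP, 20.3 after 48 h of ENZ, 17.8 in RES-A and 13.3 in RES-B. HIST1H1E, a further linker histone gene, stayed under the fold, at -0.44 after 48 h of ENZ, 0.01 [-0.06, 0.08] in RES-A and -0.11 in RES-B. In LNCaP-ENZ48 the lower genes were HIST1H4C (-0.82), HIST1H1B (-0.73) and HIST2H2AC (-0.68). In cells called G1, HIST1H4C was at 425 CPM in LNCaP, 300 after 48 h of ENZ, 205 in RES-A and 274 in RES-B. HIST1H1C was at 228, 231, 59.0 and 86.4 CPM in G1 cells, in the same order. For the other clustered genes no values within G1 cells are given. The part of the phases in the ratios of the clustered genes was not tested. The 71 genes summed to 1562 CPM in LNCaP, 1096 after 48 h of ENZ, 1006 in RES-A and 1101 in RES-B. Of these sums, HIST1H4C alone supplied 909, 514, 660 and 729 CPM, so they mainly follow a few genes. Of 10 other variant histone genes only CENPA, the centromeric H3 variant, entered the comparisons, at 22.2 CPM in LNCaP and 10.5 to 13.0 CPM in the others. CENPA is also in the list that calls G2/M cells.

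Of the 30 chaperones and exchange factors that carry histones to DNA, 26 to 28 entered each comparison with LNCaP. None was higher and 1 lower in LNCaP-ENZ48 (OIP5, -0.63), 4 were higher and 1 lower in RES-A, and 4 were higher and 2 lower in RES-B. These counts were not above those of all genes, of which 16.1% were higher in RES-A, 20.1% in RES-B, and 5.55%, 15.9% and 11.4% lower in the 3 comparisons. CHAF1B (0.75 in RES-A, 0.84 in RES-B), a subunit of the CAF-1 complex that loads H3 and H4 at replication forks, and ZNHIT1 (0.56 and 0.61), a subunit of the SRCAP complex, were higher in both. CHAF1A (0.70) and ASF1B (0.67) were higher in RES-A. DAXX was at 28.8 CPM in LNCaP, 23.7 after 48 h of ENZ, 33.8 in RES-A and 81.7 in RES-B (1.50 [1.42, 1.59] in RES-B), and RBBP4 was also higher in RES-B (0.76). The 20 genes around DAXX had a median of 0.23 in RES-B and those around RBBP4 one of 0.48. NAP1L1, an H2A and H2B chaperone, was at 998 CPM in LNCaP, 842 after 48 h of ENZ, 638 in RES-A and 562 in RES-B (-0.65 and -0.83 in the resistant lines), and SSRP1 of the FACT complex was at -0.50 in RES-B. List medians were -0.18, 0.20 and 0.10. Against LNCaP-ENZ48, 10 of 27 chaperones were higher and 0 lower in RES-A, beside 20.1% and 11.8% of all genes. In RES-B 6 of 27 were higher and 1 lower, beside 26% and 8.53%. Of 8 factors that make clustered histone transcripts, 4 or 5 entered a comparison with LNCaP. There CASP8AP2 alone passed the fold (0.88 in RES-A, 0.99 in RES-B). For chaperones and transcript factors no values within G1 cells are given. The share of cells called S was 13.0% in LNCaP, 18.9% in RES-A and 13.2% in RES-B, and its part in these ratios was not tested.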

How the data were processed

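scRNA-seq libraries of sorted living cells had been made with Chromium 3′ chemistry in 1 library per group, grouped here by sample title. The deposited values are UMI counts per gene and barcode. The authors made these counts with Cell Ranger 3.0.2 on its GRCh38 reference package, a tool that drops reads matching several genes. Cells were kept by the limits of the study for each library (LNCaP with 3000 to 7000 genes, 16000 to 50000 UMIs and mitochondrial UMIs below 15%; the others with 1500 to 5000 genes, 5000 to 25000 UMIs and mitochondrial UMIs below 15%, 17% and 20% for LNCaP-ENZ48, RES-A and RES-B), which makes LNCaP cells deeper by construction as well. No doublet caller was run. An alternative left out the 5% of cells with the most UMIs.

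For each library the UMIs of the kept cells were added up (50208831 to 60838227) and scaled to CPM. Levels had exact Poisson 95% intervals, ratios exact conditional binomial (Clopper-Pearson) intervals, and shares of cells exact binomial (Clopper-Pearson) intervals. For a fold, 0 UMIs were replaced by a floor of 3 in that library. Cells are not replicates, so no test was run and the test over cells used in the study was left out. Genes were counted past a log2 ratio of 0.5 where either library of the comparison reached 10 CPM. Phases were scored with scanpy 1.11.5 on cells thinned to 5000 UMIs (41 of 43 S and 52 of 54 G2/M genes of Seurat 5.3.0). TMM scaling (edgeR 4.0.16) and DESeq2 1.42.0 size factors were alternatives. Coordinates came from GENCODE 44 by gene ID. Ratios and intervals were tested on simulated data.

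The named genes were the 10 members, the nearest genes of H2AFJ and those of its 20 surrounding genes past the fold, the 5 genes most like it (1 of them is not reported here), and up to 4 highest and 4 lowest genes of each list past the fold against LNCaP. HIST4H4, C12orf60, HIST1H2BG, HIST1H2AE, HIST1H2BC, HIST1H2BD, HIST1H1E, HIST1H4C and HIST1H1C by phase and the surroundings of other genes were added after values were seen. The members and lists were chosen with earlier results of these data known.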

Additional observations from a re-analysis of the deposited data

Results flagged for a closer look

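H2AFZ lay on opposite sides of LNCaP in the resistant lines, RES-A at a log2 ratio of 0.25 and RES-B at -0.55. H2AFY2 did so as well, at 0.28 in RES-A and -0.77 in RES-B. Each line is 1 library, so the difference between the lines was not tested. In cells called G1 both genes kept these directions, at 0.24 and -0.64 for H2AFZ and 0.40 and -0.64 for H2AFY2.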

How the results depend on the processing

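No paired analysis was possible because each group is 1 library and the libraries carry no replicate number in the labels. H2AFJ had 0 UMIs in both resistant lines under every cell filter. Of the ratios of single members past the fold, 1 changed sign, that of H2AFX in LNCaP cells without H2AFJ UMIs. It was 0.19 [-0.73, 0.97] in cells called G1, from only 13 H2AFX UMIs. There the count of members past the fold went from 2 to 0. Ratios under the fold changed sign too, such as H2AFV in RES-A (0.02 in cells called G1) and H2AFY2 in LNCaP-ENZ48 (0.03 with TMM, 0.04 with DESeq2). At a fold of log2 1, the counts of the 9 members against LNCaP fell to 0 lower in LNCaP-ENZ48, 0 higher and 1 lower in RES-A, and 0 higher and 1 lower in RES-B; against LNCaP-ENZ48 all became 0, and between the resistant lines 0 higher and 1 lower. That fold also left 0 clustered genes in LNCaP-ENZ48 and 3 in RES-A, 0, 0 and 1 chaperones in LNCaP-ENZ48, RES-A and RES-B, 0 histone mRNA factors in the resistant lines and CENPA past it in RES-A only (0 in the others). In cells called G1, 1 member was lower in LNCaP-ENZ48, 0 were higher in RES-A and 3 were lower in RES-B, and RES-A against LNCaP-ENZ48 had 0 higher and 2 lower. TMM and DESeq2 scaling each gave 0 higher in RES-A against LNCaP, 0 higher and 2 lower in RES-A against LNCaP-ENZ48, and 2 lower in RES-B against it. A minimum of 1 CPM gave 7, 21 and 18 clustered genes past the fold for LNCaP-ENZ48, RES-A and RES-B. It gave 2 chaperones for LNCaP-ENZ48. A minimum of 50 CPM gave 2 and 3 clustered genes in RES-A and RES-B, 0 and 2 chaperones in LNCaP-ENZ48 and RES-A, 0 mRNA factors and 0 other variants, 0 lower members in RES-B against LNCaP-ENZ48, and 0 higher and 1 lower between the resistant lines. Fewer genes enter at a higher minimum or fewer pass at a higher fold by construction; for the other settings the cause was not tested. Another 67 counts stayed within 1.5 times their value. Depth limits H2AFX, H2AFY2 and H1F0 per cell and HIST4H4 in sum.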
